A study of Mus musculus with 26 samples.

Results

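Primary tumors of a mouse model of Group3 medulloblastoma were compared with Group3 neurospheres, floating cultures of cells of the same genotype, on 6 of the 26 arrays of the series. The members were the 3 arrays titled as untreated Group3 tumors and the 3 titled as Group3 neurospheres that carry the title code dka; drug-treated and secondary tumors were left out. Both groups were labelled Trp53-/-, Cdkn2c-/- Myc on the C57BL/6 strain, so both lacked the tumor suppressors Trp53 and Cdkn2c and carried the Myc genotype. The tumors were labelled as medulloblastoma tumors and the neurospheres as medulloblastoma cells. No age, passage number, culture medium or host is given in the labels for these 6 samples, nor how Myc was introduced, whether a tumor or a culture stands for 1 animal or 1 line, or whether tissue was dissected free of normal brain. The other dka arrays, 3 of Trp53-/-, Cdkn2c-/- neurospheres without the Myc genotype, labelled as granule neural progenitors, and 3 of secondary Group3 tumors, entered the fit and helped to estimate the spread between arrays. RNA was read on mouse Affymetrix HT MG-430 PM arrays, and 17097 genes were compared through the brightest of each gene's probe sets.

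Medulloblastoma arises in the developing cerebellum. Group 3 tumors are the class most often linked to high MYC, a transcription factor that drives ribosome production, nucleotide synthesis and cell division. Cerebellar granule neurons come from progenitors that express Atoh1 and then, as they leave the cell cycle, Neurod1, whereas neurosphere cultures are usually grown with EGF and FGF, which favour cells with neural stem cell and glial features.

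Array medians of the 6 arrays lay between 4.66 and 4.74 on the log2 scale and their values ran from 2.56 to 13.85, so no array stood apart in scale. A level is given throughout as log2 intensity, and a difference as the mean of the tumors minus the mean of the neurospheres, where 1 is a 2-fold change. Over all probe sets, the SD of the difference between a pair of tumors was 0.57 to 0.587, between a pair of neurospheres 0.452 to 0.528, and between a tumor and a neurosphere 0.824 to 0.941. Among single genes the SD between arrays was over 1 for 662 genes in the tumors and for 407 in the neurospheres. Because the labels do not say that the arrays are separate animals or cultures, p values measure only the spread between these arrays. In bulk RNA, more cells of a type and more RNA per cell cannot be told apart.

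Tumors and neurospheres differed at 3070 of the 17097 genes (limma adjusted p under 0.05, 18% of those tested). Of these, 1417 were higher in tumors (8.29%) and 1653 were lower (9.67%), and these shares are the background for every gene group below. A difference of at least 2-fold was found for 836 of the higher and 1135 of the lower genes. The 3 tumor values and the 3 neurosphere values did not overlap for 6004 genes (35.1%), and for 3016 of them (17.6% of those tested) the call was also made. The median difference over all genes was 0.0046. For 828 of the called genes the group with the lower level lay under 4.7, the mean of the array medians, where an array signal may stop following RNA, so those differences may be lower bounds.

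The genes are described in 48 lists by role. In these lists 350 genes were called, of which 226 were called in each of the 6 fits that left out 1 array, and of the 278 called genes named by the rule given in the methods 196 were. Where a gene given with its SE lost or gained the call in such a fit, the adjusted p follows its own. Of the 38 list counts of 1 to 3 genes, 25 moved by over 1.5 times when some array was left out, so a small count rests on single genes. Many members were dim, and without genes dimmer than the median gene fewer remained to be counted. Higher members then numbered 2 for microglia, 1 for endothelium, 5 for synaptic vesicle genes, 1 for interferon response genes, 4 for chemokines and 0 for complement genes, and lower members 4 for WNT genes, 1 for transmitter receptors and 5 for cadherins. In a limma fit of the 6 arrays alone the higher members numbered 6 for endothelium, 1 for fibroblasts, 3 each for voltage-gated channels, axon guidance, interferon response, immediate early and cadherin genes and 2 for translation factors, and the lower members 6 for WNT genes and 2 for Notch genes. With all 26 arrays in the fit, higher members numbered 4 for interferon response genes and 3 for cadherins, and lower members 3 for transmitter receptors and 3 for BMP genes. With values raised to the array median, higher members numbered 8 for microglia, 4 for endothelium, 4 for chemokines, 2 for axon guidance genes and 1 each for interferon response and fibroblast genes.

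Neuronal genes led the rises. Neurod1, the transcription factor of differentiating granule neurons, measured 11.85, 11.52 and 11.84 in the tumors and 3.76, 3.84 and 4.13 in the neurospheres. Its difference of 7.83 (SE 0.25, limma adjusted p = 1e-07) was the largest rise. Stmn2, which regulates microtubules in growing axons, measured 10.82, 9.88 and 11.44 in the tumors and 3.22, 3.09 and 3.41 in the neurospheres, higher in tumors by 7.47 (SE 0.39, limma adjusted p = 1.91e-06). Insm1, a zinc finger factor of neuroendocrine and neuronal progenitors, measured 10.54, 10.13 and 10.51 in the tumors and 4.11, 4.53 and 3.90 in the neurospheres, higher by 6.21 (SE 0.24, limma adjusted p = 4.31e-07). In each of these genes the groups were separated by more than 5 log2 units and the tumors varied little among themselves except for Stmn2, whose tumor values ran from 9.88 to 11.44.

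The neuronal RNA-binding protein Elavl3 measured 9.80, 9.55 and 9.43 in the tumors and 3.77, 3.97 and 3.83 in the neurospheres (5.74, SE 0.16, limma adjusted p = 4.41e-08). Lhx1, a homeobox factor of Purkinje cells and other inhibitory neurons, measured 9.77, 10.32 and 9.24 in the tumors and 3.65, 4.13 and 4.93 in the neurospheres (5.54, SE 0.41, limma adjusted p = 1.92e-05). Syt4, a synaptotagmin of secretory vesicles, measured 10.34, 9.68 and 10.33 in the tumors and 4.84, 4.09 and 3.72 in the neurospheres (5.90, SE 1.01, limma adjusted p = 0.00263). The remaining leading rises did not all belong to neurons. Rgs5, a pericyte gene, was highest in tumor 3, with 8.43, 8.64 and 10.75 in the tumors and 3.83, 3.66 and 3.22 in the neurospheres (5.71, SE 0.60, limma adjusted p = 0.000167). Mgl2, a lectin of macrophages, measured 8.96, 8.85 and 8.49 in the tumors and 3.33, 3.77 and 3.20 in the neurospheres (5.33, SE 1.04, limma adjusted p = 0.00536). Igf2, an imprinted growth factor that meningeal and vascular cells also make, measured 8.54, 10.91 and 10.36 in the tumors and 4.53, 4.12 and 4.98 in the neurospheres (5.39, SE 0.74, limma adjusted p = 0.000755), lowest in tumor 1. Ppp1r14a (6.38), an inhibitor of myosin phosphatase, Clmp (5.41), an adhesion molecule, Igsf21 (5.21), a synaptic adhesion protein, Dusp26 (5.17), a dual specificity phosphatase, Umodl1 (5.17) and the prostaglandin receptor Ptger3 (5.15) completed the 15 largest rises. In all 15 the neurosphere mean lay under the mean array median.

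Glial, stem cell and growth factor genes led the falls. Chl1, a neural adhesion molecule of the L1 family, measured 3.70, 3.32 and 3.73 in the tumors and 10.15, 9.33 and 10.22 in the neurospheres, and fell by 6.32 (SE 0.32, limma adjusted p = 1.86e-06). Egfr, the EGF receptor, measured 3.93, 4.05 and 5.79 in the tumors and 9.92, 10.96 and 9.90 in the neurospheres and fell by 5.67 (SE 0.49, limma adjusted p = 4.63e-05). Etv5, an ETS factor induced by FGF signalling, measured 4.93, 6.77 and 5.70 in the tumors and 10.89, 11.86 and 11.55 in the neurospheres and fell by 5.63 (SE 0.45, limma adjusted p = 2.91e-05). Olig1, a factor of the oligodendrocyte lineage, fell by 5.46 (SE 0.98, limma adjusted p = 0.00354) but was uneven among tumors. It measured 5.98, 5.44 and 10.37 in the tumors and 13.02, 12.90 and 12.26 in the neurospheres, so tumor 3 lay 4 log2 units or more above the other tumors. Hoxa5, a Hox gene, measured 3.76, 3.59 and 3.87 in the tumors and 8.52, 8.89 and 8.85 in the neurospheres and fell by 5.01 (SE 0.25, limma adjusted p = 1.68e-06). The receptor Calcrl measured 3.51, 3.65 and 4.99 in the tumors and 8.98, 9.76 and 9.49 in the neurospheres and fell by 5.36 (SE 0.62, limma adjusted p = 0.00029). The other falls among the leading 15 were Car3 (-5.24), a carbonic anhydrase, the metalloprotease Adam12 (-5.23), the receptor phosphatase Ptprz1 (-5.02) of glia and radial glia, the noncoding host gene Mir100hg (-4.99), the sarcosine oxidase Pipox (-4.97), Fndc1 (-4.83), the glutamate receptor Grm3 (-4.68), the zinc finger factor Sall3 (-4.64) and Mlc1 (-4.61), a membrane protein of astrocytes. The tumor mean was under the mean array median for 11 of the 15.

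**Figure D1:**
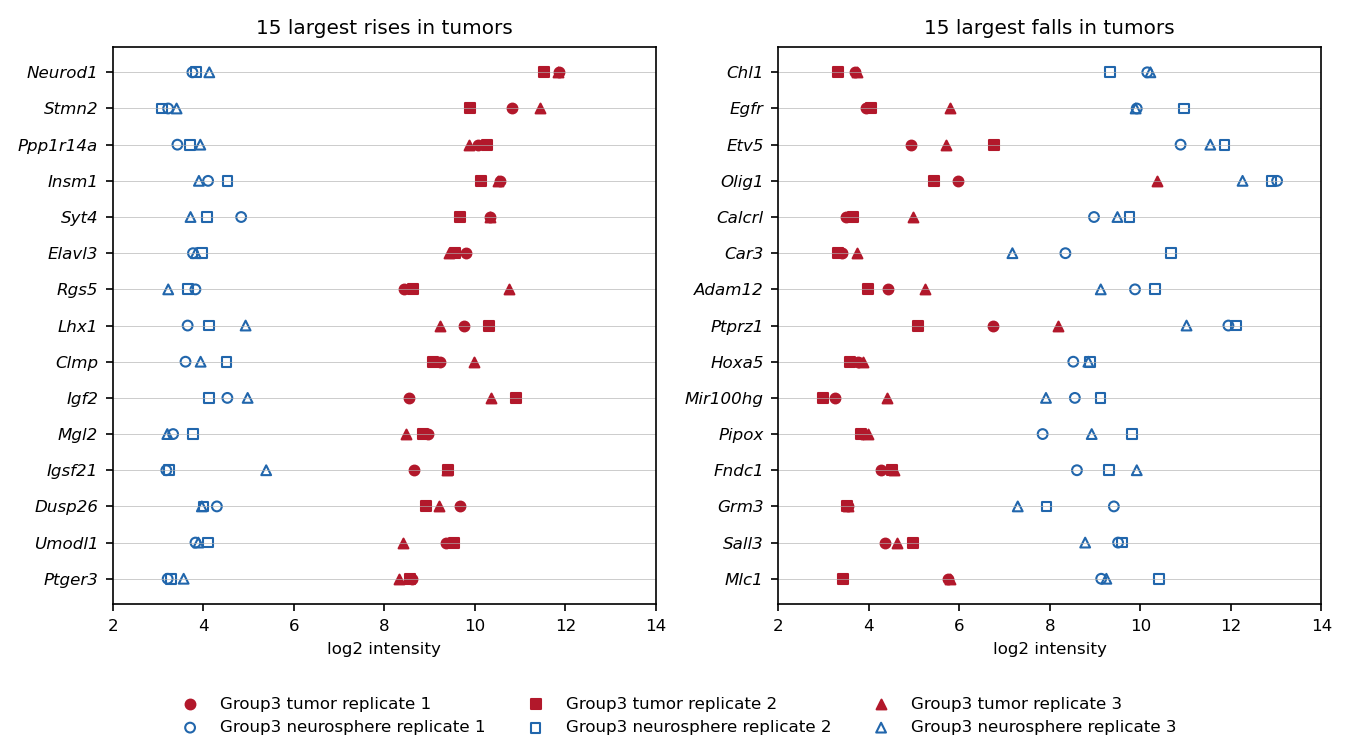
Log2 intensity (horizontal axis) of the 15 genes with the largest rises and the 15 with the largest falls in tumors; filled symbols are the 3 tumors, open symbols the 3 neurospheres, and symbol shape gives the replicate number. The groups do not overlap for any of the 30 genes, which the rule required; Olig1 and Ptprz1 show the raised values of tumor 3.

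The genes of the genotype gave no large contrast. Myc measured 8.33, 6.93 and 9.07 in the tumors and 7.94, 8.28 and 7.76 in the neurospheres, which differed by 0.12 (SE 0.49, limma adjusted p = 0.906); tumor 2 was the lowest and tumor 3 the highest of the 6 arrays, so the groups overlapped. Mycn, its paralog, measured 13.60, 13.22 and 13.40 in the tumors and 12.38, 12.79 and 12.86 in the neurospheres on the brightest of 3 probe sets. On that probe set it was higher by 0.73 (SE 0.18, limma adjusted p = 0.0195, or 0.0713 without tumor 1 and 0.0665 without neurosphere 1). The remaining pair of probe sets read far lower, with tumor means of 5.15 and 4.01 and neurosphere means of 4.64 and 3.66. They differed by 0.51 and 0.35, with limma adjusted p over all probe sets of 0.123 and 0.165. The level read for Mycn therefore depends on the probe set. Cdkn2c lay under the mean array median on all 6 arrays, with 3.53, 3.47 and 3.76 in the tumors and 3.39, 3.55 and 3.51 in the neurospheres (0.10, SE 0.12, limma adjusted p = 0.624). The position of their probe sets against the deleted exons or the introduced copy was not looked up here, and these levels are no check of the genotype labels.

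Genes of cerebellar granule neurons were higher in tumors. Of 26 measured members, 13 rose and 1 fell, with a median difference of 0.85. Besides Neurod1, Stmn2 and Elavl3, the rises were Rbfox3 (5.09), the neuronal nuclear antigen NeuN, Tubb3 (4.82), a neuronal tubulin, Reln (4.09), the secreted guide of migrating neurons, Snap25 (4.0), a SNARE protein of transmitter release, Elavl4 (2.62), Neurod2 (2.52), Cntn2 (2.25), Stmn3 (1.98), Nfib (0.91) and Nfix (0.78). Rbfox3 measured 10.65, 10.43 and 10.27 in the tumors and 3.77, 6.15 and 6.17 in the neurospheres (SE 0.51, limma adjusted p = 0.000108); neurosphere 1 was lower than the other neurospheres. Tubb3 measured 11.07, 10.72 and 10.71 in the tumors and 6.97, 6.35 and 4.74 in the neurospheres (SE 0.46, limma adjusted p = 8.95e-05), and its neurosphere values spread over more than 2 log2 units. Snap25 measured 9.98, 9.34 and 9.91 in the tumors and 4.76, 7.65 and 4.81 in the neurospheres (SE 0.66, limma adjusted p = 0.00211), with neurosphere 2 nearer to the tumors. Etv1, the member that fell (-3.81), is also an FGF-induced ETS factor. The mean level of the list was 7.77, 7.60 and 8.0 in the tumors and 5.90, 6.08 and 5.86 in the neurospheres, so the tumors resembled one another.

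Promoter windows of the granule neuron genes are shown because these genes moved together and because Neurod1, the gene with the leading rise, binds E-box motifs. CAGATG, the E-box preferred by NEUROD factors (CATCTG on the other strand), was counted on both strands in the 250 bases before each RefSeq start (mouse GRCm38.p6). It was present for 7 of the 21 list members with a window (33.3%) and for 4 of the 10 that were higher (40%), against 13.5% of the 13605 measured genes with a window and 14.4% of all 32851 windows. This was 1 of 7 motifs counted in each of 2 window lengths after the values were known, and it is a description of letters, with no test and no statement on binding. Neurod1, Stmn2, Elavl3, Rbfox3, Tubb3, Reln and Snap25 rose more than the members shown here, and each either had no window or lacked the motif. Of the higher members that hold the motif, the windows of the 3 with the largest differences follow. They are written 5′ to 3′ on the gene's strand, with the motif in capitals.
Elavl4: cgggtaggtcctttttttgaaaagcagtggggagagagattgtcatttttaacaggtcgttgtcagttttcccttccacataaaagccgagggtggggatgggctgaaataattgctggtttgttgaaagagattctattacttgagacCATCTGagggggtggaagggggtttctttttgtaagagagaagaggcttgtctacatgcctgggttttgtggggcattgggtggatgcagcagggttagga
Neurod2: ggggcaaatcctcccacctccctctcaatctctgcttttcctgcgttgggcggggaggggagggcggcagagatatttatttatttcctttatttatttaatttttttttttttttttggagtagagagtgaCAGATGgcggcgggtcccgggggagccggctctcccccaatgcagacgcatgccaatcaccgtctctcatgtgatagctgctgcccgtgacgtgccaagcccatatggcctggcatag
Stmn3: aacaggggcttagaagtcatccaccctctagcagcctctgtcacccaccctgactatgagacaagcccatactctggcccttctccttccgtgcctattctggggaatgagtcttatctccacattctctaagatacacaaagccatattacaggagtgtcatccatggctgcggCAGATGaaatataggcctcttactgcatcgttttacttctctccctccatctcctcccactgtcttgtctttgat
They lie at chr4:110286835-110287084, strand - for Elavl4, chr11:98329646-98329895, strand - for Neurod2 and chr2:181314501-181314750, strand - for Stmn3. The first base of the motif has position -101, -118 and -75 relative to the start, respectively. Elavl4, a neuronal RNA-binding protein, measured 9.18, 9.09 and 9.90 in the tumors and 7.29, 7.31 and 5.70 in the neurospheres (SE 0.39, limma adjusted p = 0.00128). Neurod2, a relative of Neurod1 of later neurons, measured 6.99, 7.91 and 7.68 in the tumors and 4.93, 5.01 and 5.07 in the neurospheres (SE 0.33, limma adjusted p = 0.000523), and the groups did not overlap. Stmn3, a stathmin of neurites, measured 10.84, 10.52 and 10.66 in the tumors and 7.21, 10.09 and 8.76 in the neurospheres (SE 0.54, limma adjusted p = 0.0289, or 0.0588 to 0.0855 without tumor 1, 2 or 3 or neurosphere 3), with neurosphere 2 within 1 log2 unit of the tumors.

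Genes of granule neuron progenitors moved less uniformly. Of 20 measured, 6 rose and 2 fell (median 0.33). The rises were Insm1, Mfap4 (5.09), the helix-loop-helix factor Nhlh1 (4.0), the zinc finger factors Zic4 (2.23) and Zic5 (2.03), and Mycn on its brightest probe set alone. Rfx4 (-4.45) and the cyclin Ccnd1 (-1.18) fell. Atoh1, which defines the progenitors, lay under the mean array median on every one of the 6 arrays, with 3.99, 4.56 and 4.18 in the tumors and 3.47, 3.58 and 3.99 in the neurospheres (0.56, SE 0.57, limma adjusted p = 0.573), as did Barhl1, with 4.24, 4.21 and 4.07 in the tumors and 4.11, 3.87 and 4.12 in the neurospheres (0.14, SE 0.15, limma adjusted p = 0.598). Genes of other cerebellar neurons were called higher for 4 of 21, namely Lhx1 and the neurofilaments Nefh (5.08), Nefl (4.67) and Nefm (3.08), and lower for 2, Aldoc (-4.56) and Gad1 (-4.34), the GABA-synthesizing enzyme. The count of higher members was 2 without tumor 2 or neurosphere 1 or 3. Gad1 measured 3.78, 3.71 and 3.94 in the tumors and 7.83, 7.98 and 8.65 in the neurospheres (SE 0.20, limma adjusted p = 1.21e-06), and it was under the mean array median in the tumors alone.

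Genes that mark human Group 3 tumors and photoreceptors gave few calls: 3 of 23 rose and 1 fell (median 0.09), and the rises numbered 1 without tumor 3 or neurosphere 1 or 2. Of the 23, 20 had a mean under the mean array median over these arrays. Npr3, a natriuretic peptide receptor used to classify Group 3 tumors, measured 8.53, 8.23 and 8.35 in the tumors and 4.03, 4.70 and 5.52 in the neurospheres and rose by 3.62 (SE 0.71, limma adjusted p = 0.00584). Gabra5, a GABA receptor subunit, measured 6.94, 3.65 and 6.28 in the tumors and 3.50, 3.52 and 3.6 in the neurospheres and rose by 2.08 (SE 0.64, limma adjusted p = 0.0472, or 0.103 to 0.156 without tumor 1 or 3 or neurosphere 1, 2 or 3), although tumor 2 lay at the level of the neurospheres. The bZIP factor Mafk (1.18) rose and the chromatin remodeler subunit Smarcd3 (-2.35) fell. Otx2, a homeobox oncogene of Group 3 and Group 4 tumors named here after its values were seen, was uneven: it measured 3.6, 7.49 and 5.03 in the tumors and 3.46, 3.40 and 3.36 in the neurospheres (1.97, SE 0.72, limma adjusted p = 0.0869, or 0.00865 without tumor 1), so the tumors ran from near the neurosphere level in tumor 1 to 4 log2 units above it in tumor 2.

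Transmitter release genes were mostly higher where they were called, and transmitter receptors mostly lower. Of 25 synaptic vesicle and release genes, 11 rose and 2 fell (median 0.45). Rises included Syt4, the complexin Cplx1 (4.50), Snap25, Sv2b (3.37), the active zone protein Pclo (3.04), Rab3c (2.35), synaptophysin Syp (2.09) and Rims1 (2.06). Cplx2 (-1.59) and Nrxn2 (-1.34) fell, and Syt1, a defining marker of mature neurons, overlapped between groups with 4.50, 3.27 and 5.17 in the tumors and 5.70, 3.56 and 4.19 in the neurospheres (SE 0.78, limma adjusted p = 0.918). Of 28 glutamate and GABA receptor genes, 3 rose (Gabra5 (2.08), Gabra4 (1.96), Grik2 (1.29)) and 6 fell, among them Grm3, Grm5 (-3.58), Gabrg1 (-3.45) and Gria3 (-2.40) (median 0.03). The count of higher receptor genes was 1 without tumor 1 or neurosphere 3. The difference between these lists was not tested.

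Among 25 voltage-gated channel genes, 7 rose and 1 fell (median 0.47), and the count of higher members was 4 without tumor 2 or neurosphere 1 or 3. The rises were mostly calcium channel subunits, Cacna2d2 (3.91), Cacna2d1 (3.19), Cacna1d (2.34), Cacna1b (2.04) and Cacna1a (1.77), followed by Scn3b (0.89) and Hcn2 (0.67); the potassium channel Kcnd3 (-3.56) fell. Axon guidance genes went both ways, with 7 of 38 higher and 6 lower (median 0.33). The ephrin receptors Epha3 (2.74) and Epha8 (2.11), Sema4d (1.67), Efna5 (1.55) and Nrp2 (1.51) were higher, and Epha5 (-3.17), Sema3a (-2.8), Plxna2 (-2.25), Sema6d (-1.47) and Robo1 (-1.39) lower. Higher guidance genes numbered 2 without tumor 1, 4 without tumor 2 or 3 or neurosphere 1, 2 or 3, and lower ones 3 without tumor 1.

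Neural stem cell and radial glia genes were lower in tumors. Of 25 measured, 14 fell and 2 rose, with a median difference of -1.37. In a fit of the 6 arrays alone 9 fell. The mean level of the list was 6.71, 6.23 and 7.05 in the tumors and 8.41, 8.51 and 8.16 in the neurospheres, lowest in tumor 2. Sox2, the stem cell factor, measured 6.76, 5.81 and 8.75 in the tumors and 10.78, 11.06 and 10.43 in the neurospheres and fell by 3.65 (SE 0.72, limma adjusted p = 0.00597), and tumor 3 was the highest of the tumors. Fabp7, a fatty acid binding protein of radial glia, measured 10.28, 5.89 and 10.09 in the tumors and 13.32, 13.30 and 12.39 in the neurospheres and fell by 4.25 (SE 1.05, limma adjusted p = 0.0178, or 0.0537 without neurosphere 1 and 0.0572 without neurosphere 2), with tumor 2 more than 4 log2 units under the other tumors. Nes, the intermediate filament nestin, measured 4.43, 4.33 and 4.53 in the tumors and 6.20, 7.08 and 6.48 in the neurospheres and fell by 2.16 (SE 0.40, limma adjusted p = 0.00419). All 3 tumor values of Nes lay under the mean array median, so their evenness may not follow RNA. Ptprz1, Sall3, tenascin Tnc (-4.20), Sox21 (-3.88), Id3 (-3.19), and Hes1 (-3.10) also fell. Prom1 (3.79), the stem cell antigen CD133, and Msi1 (1.17) rose. Prom1 measured 10.38, 9.18 and 9.29 in the tumors and 5.02, 5.47 and 6.99 in the neurospheres (SE 0.49, limma adjusted p = 0.000528), and no tumor overlapped the neurospheres. Together with Sox2, Nes and Fabp7, Hes5 was a defining marker of neural stem cells; all 4 were lower in tumors.

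Notch genes went both ways. Of 20, 4 rose and 4 fell (median -0.21). Dll3, a ligand that inhibits the pathway within the same cell, measured 9.25, 9.64 and 8.84 in the tumors and 7.29, 4.41 and 3.55 in the neurospheres and rose by 4.16 (SE 1.09, limma adjusted p = 0.0234, or 0.0643 to 0.0878 without tumor 1 or 2 or neurosphere 2 or 3), although neurosphere 1 was 2 or more log2 units above the other neurospheres. Mfng, a glycosyltransferase that modifies Notch receptors, measured 9.04, 8.37 and 8.93 in the tumors and 5.32, 5.60 and 6.39 in the neurospheres and rose by 3.01 (SE 0.66, limma adjusted p = 0.00991). Dner (2.31), a ligand-like protein of neurons, and Hes6 (0.93), which counteracts Hes1, were also higher. Notch1, a receptor, measured 7.33, 6.69 and 8.24 in the tumors and 10.59, 10.66 and 10.45 in the neurospheres and fell by 3.15 (SE 0.51, limma adjusted p = 0.00205). The target genes Hes1, Hes5 and Hey1 (-1.15) fell. Hes5 measured 5.15, 4.0 and 4.0 in the tumors and 8.49, 7.64 and 5.41 in the neurospheres (SE 0.64, limma adjusted p = 0.0126), with neurosphere 3 nearest to the tumors, and Hes1 measured 4.61, 4.45 and 5.16 in the tumors and 7.68, 7.50 and 8.35 in the neurospheres (SE 0.49, limma adjusted p = 0.0017).

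EGF and FGF pathway genes were lower in tumors. Of 33 receptors, ligands and feedback genes, 16 fell and 0 rose, with a median difference of -1.56 and 13 to 19 lower when 1 array was left out. Mean levels of the list were 5.50, 5.71 and 6.31 in the tumors and 7.21, 7.39 and 7.19 in the neurospheres, and tumor 3 was the highest of the tumors. Among receptors, Egfr fell as given above, Fgfr1 (-2.36), Fgfr3 (-2.25) and Erbb2 (-1.56) fell, and so did Lrig1, a negative regulator of EGF receptors (-2.94). The ligands Fgf1 (-3.48) and Tgfa (-1.63) were lower. Genes that the pathway induces and that feed back on it fell too. Spry4, a Sprouty inhibitor, measured 3.56, 3.72 and 5.23 in the tumors and 8.45, 8.87 and 8.69 in the neurospheres and fell by 4.50 (SE 0.38, limma adjusted p = 4.13e-05), and Dusp6, a phosphatase of ERK, measured 6.62, 6.52 and 8.44 in the tumors and 10.74, 11.60 and 10.82 in the neurospheres and fell by 3.86 (SE 0.56, limma adjusted p = 0.001). Spry2 (-3.88), Etv1 (-3.81), Spred1 (-2.10), Spred3 (-2.06), Spry1 (-1.90) and Etv4 (-1.39) were also called lower. The growth factors in the culture medium are not given in the sources used here.

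WNT genes were lower where they were called, with 10 of 37 lower and 1 higher (median -0.14); the higher members numbered 3 without neurosphere 2. The ligands Wnt4 (-2.88) and Wnt5a (-2.75), the receptor Fzd9 (-2.10), the factors Tcf7l2 (-1.93) and Tcf7l1 (-1.56), the feedback genes Axin2 (-2.28) and Nkd1 (-1.30), and the receptor Fzd8 (-0.94) fell. Axin2, a WNT target, measured 3.90, 5.24 and 4.77 in the tumors and 6.92, 7.50 and 6.35 in the neurospheres (SE 0.38, limma adjusted p = 0.00212), with tumor 1 lowest. Sfrp2, a secreted WNT modulator, was the member that rose, with 8.75, 9.12 and 8.79 in the tumors and 6.21, 7.45 and 6.27 in the neurospheres (2.24, SE 0.39, limma adjusted p = 0.00309). BMP and TGF-beta genes gave 2 higher (Acvr2b (1.33), Smad7 (1.25)) and 5 lower of 31 (median 0.12). Bmp7 (-1.88), Bmpr1b (-1.55) and Smad5 (-1.51) had the largest falls of this list, and the lower members numbered 2 without tumor 3 or neurosphere 2, 3 without tumor 1 or 2. Hox genes gave 3 lower of 27, Hoxa5, Hoxa2 (-2.42) and Hoxa4 (-1.36) (median -0.05), and 25 of the 27 had a mean under the mean array median.

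Imprinted growth genes were higher in tumors in 6 of 20 measured members of the IGF and imprinted list, and 2 fell (median 0.28). Besides Igf2, the rises were the maternally expressed noncoding RNA Meg3, the adaptor Grb10, the zinc finger genes Peg3 (3.04) and Plagl1 (1.94), and Dlk1, a Notch-like surface protein. Meg3 measured 8.42, 9.65 and 8.38 in the tumors and 4.09, 3.86 and 3.93 in the neurospheres (4.86, SE 0.75, limma adjusted p = 0.00144). Grb10 measured 9.07, 11.04 and 9.95 in the tumors and 6.84, 4.46 and 5.26 in the neurospheres (4.50, SE 1.04, limma adjusted p = 0.0128, or 0.0517 without neurosphere 2), highest in tumor 2. Dlk1 measured 7.50, 8.24 and 7.22 in the tumors and 4.43, 4.94 and 4.71 in the neurospheres (2.96, SE 0.83, limma adjusted p = 0.0322, or 0.053 to 0.0961 with 1 array left out). These 3 genes did not overlap between groups. Irs1 (-1.89) and Igfbp3 (-1.85), members of the IGF axis, fell. Igf2, which several lists hold, is also a fibroblast and meningeal gene whose cell type markers are given further on. The higher members numbered 3 without tumor 2 or neurosphere 2.

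Ribosome biogenesis was the list with the largest share of higher members. 26 of 38 measured members rose (68.4%) and 0 fell; 38 of 38 differences were positive, with a median of 0.74, and 21 to 24 were called when 1 array was left out. The mean level of the list was 10.08, 10.07 and 9.92 in the tumors and 9.30, 9.28 and 9.20 in the neurospheres. Rrp12, a factor for export of ribosomal subunits, measured 9.33, 9.65 and 9.08 in the tumors and 8.02, 7.48 and 6.89 in the neurospheres and rose by 1.89 (SE 0.34, limma adjusted p = 0.00383). Nolc1, a nucleolar phosphoprotein, measured 11.16, 10.90 and 10.68 in the tumors and 9.94, 9.73 and 9.64 in the neurospheres and rose by 1.15 (SE 0.17, limma adjusted p = 0.000971), and Fbl, the RNA methyltransferase fibrillarin, a small rise of 0.50 (SE 0.11, limma adjusted p = 0.0108), measured 12.13, 12.24 and 12.22 in the tumors and 11.80, 11.70 and 11.60 in the neurospheres. Rrp1b (1.30), Rrp9 (1.24), Noc4l (1.23), the RNA polymerase I subunit Polr1a (1.18), Wdr75 (1.10), Heatr1 (1.08) and Bop1 (1.07) were the other large rises. Differences were about 1 log2 unit, small beside those of neuronal genes, but the groups were tight.

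Motifs near the start sites of this list are shown because its members moved together and because MYC binds the E-box CACGTG. In windows of 300 bases (250 before to 50 after each RefSeq start, both strands), CACGTG was present for 7 of 32 members with a window (21.9%) and for 6 of the 23 that were higher (26.1%), against 10.2% of measured genes and 7.15% of all windows. In the 250 bases before the start alone it was present for 1 of the 32 (3.12%), against 8.75% of measured genes, so most of these matches lay after the start. The ETS motif CCGGAAGT, another of the 7 counted, was present in 12 of the 32 windows of 300 bases (37.5%), against 6.67% of measured genes. These counts were made after the values were known and carry no test. The stretches of 30 bases around CACGTG in the 6 higher members follow, 5′ to 3′ on the gene's strand, with the motif in capitals.
Utp4: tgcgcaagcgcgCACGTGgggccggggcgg
Wdr43: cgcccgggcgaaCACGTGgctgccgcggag
Grwd1: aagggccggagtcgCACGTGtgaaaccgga
Utp20: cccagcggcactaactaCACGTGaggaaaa
Nop2: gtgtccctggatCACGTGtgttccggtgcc
Pes1: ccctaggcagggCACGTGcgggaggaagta
In GRCm38.p6 these lie at chr8:106893643-106893672, strand + (Utp4), chr17:71616220-71616249, strand + (Wdr43), chr7:45830740-45830769, strand - (Grwd1), chr10:88826765-88826794, strand - (Utp20), chr6:125131811-125131840, strand + (Nop2) and chr11:3963965-3963994, strand + (Pes1). The tumors exceeded the neurospheres by 1.04 at Utp4, a processome subunit (SE 0.12, limma adjusted p = 0.00021), with 10.74, 10.56 and 10.56 in the tumors and 9.64, 9.46 and 9.63 in the neurospheres. Nop2, an RNA methyltransferase whose motif is the 1 before the start, measured 9.63, 9.70 and 9.30 in the tumors and 8.66, 8.88 and 8.48 in the neurospheres (0.87, SE 0.20, limma adjusted p = 0.0145, or 0.0505 without tumor 2 and 0.0559 without neurosphere 3). Pes1, of the complex with Bop1, measured 10.81, 10.68 and 10.66 in the tumors and 10.03, 9.95 and 10.22 in the neurospheres (0.65, SE 0.17, limma adjusted p = 0.025, or 0.0545 to 0.0811 without tumor 1 or 2 or neurosphere 1 or 2). Wdr43, Grwd1 and Utp20 differed by 0.92, 0.90 and 0.88, with limma adjusted p of 0.022, 0.0157 and 0.0489. With fewer arrays the adjusted p was 0.0522 to 0.0756 without tumor 2 or neurosphere 1 or 2 for Wdr43, 0.0505 to 0.0592 without tumor 1 or neurosphere 2 or 3 for Grwd1 and 0.061 to 0.155 with 1 array left out for Utp20.

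Ribosomal protein genes did not share these calls: 0 of 37 were called in either direction by limma, and their median difference was 0.05. The mitochondrial ribosome and import list had 6 of 30 higher (Timm50 (0.89), Mrps5 (0.77), Timm9 (0.77) and the chaperone Hspa9 (0.69) among them) and 0 lower (median 0.28). Averaging the probe sets of a gene gave 10 higher members in place of 6. Translation factors and tRNA synthetases had 5 of 28 higher (median 0.26), Eif3b (0.72), Farsa (0.64), Hars (0.62), Vars (0.62) and Kars (0.41); the count was 1 without tumor 2 or neurosphere 2, 2 without tumor 1 or 3. Respiratory chain genes had 0 calls of 44 by limma (median 0.02).

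DNA replication genes were called higher for 12 of 48 and lower for 0 (median 0.54). List means were 9.07, 9.34 and 9.27 in the tumors and 9.09, 8.21 and 8.74 in the neurospheres, so neurosphere 1 was at the level of the tumors and neurosphere 2 below. E2f1, a factor that switches on replication genes, measured 8.05, 8.44 and 7.91 in the tumors and 6.48, 5.94 and 5.92 in the neurospheres and rose by 2.02 (SE 0.25, limma adjusted p = 0.000455). E2f2 (1.78), the nucleotide enzyme Dut (1.36), the flap endonuclease Fen1 (1.27), the helicase subunit Mcm2 (1.27), the licensing factor Cdt1 (1.18), the DNA polymerase alpha subunit Pola2 (1.05) and Gins1 (0.89) also rose. Mitosis genes were called for 2 higher (Top2a (0.95), Espl1 (0.69)) and 1 lower (Aspm (-0.60)) of 44 (median below 0.01), and lower members numbered 0 without tumor 1 or neurosphere 1 or 3, 4 without neurosphere 2. Cell cycle inhibitors and p53 targets had 2 higher (Perp (2.32), Gadd45g (1.83)) and 2 lower (Plk2 (-3.29), Cdkn2b (-2.17)) of 25 (median 0.40), with higher members numbering 4 without tumor 1 or 3 or neurosphere 1 or 3.

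Nucleotide and folate genes were higher in 11 of 27 and lower in 1, with a median of 0.51. Cad, which starts pyrimidine synthesis, measured 10.68, 10.56 and 10.32 in the tumors and 9.42, 9.26 and 8.78 in the neurospheres and rose by 1.37 (SE 0.18, limma adjusted p = 0.000667). Fpgs, which retains folates and antifolates in the cell by adding glutamates, measured 9.23, 9.01 and 8.23 in the tumors and 7.42, 7.23 and 7.46 in the neurospheres and rose by 1.46 (SE 0.27, limma adjusted p = 0.00439). Ggh, which removes those glutamates, was the member that fell, with 8.20, 8.40 and 8.43 in the tumors and 8.76, 9.16 and 9.04 in the neurospheres (-0.65, SE 0.15, limma adjusted p = 0.0117). Slc19a1, the reduced folate carrier, measured 9.39, 9.42 and 9.12 in the tumors and 8.59, 8.13 and 8.37 in the neurospheres and rose by 0.95 (SE 0.22, limma adjusted p = 0.0124). Impdh1 (1.45), Ctps (1.36), Ppat (1.16), Shmt2 (1.15), Shmt1 (1.11) and Prps1 (0.99), enzymes of purine, pyrimidine and one-carbon metabolism, were higher too. No tumor of this comparison received a drug.

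**Figure D2:**
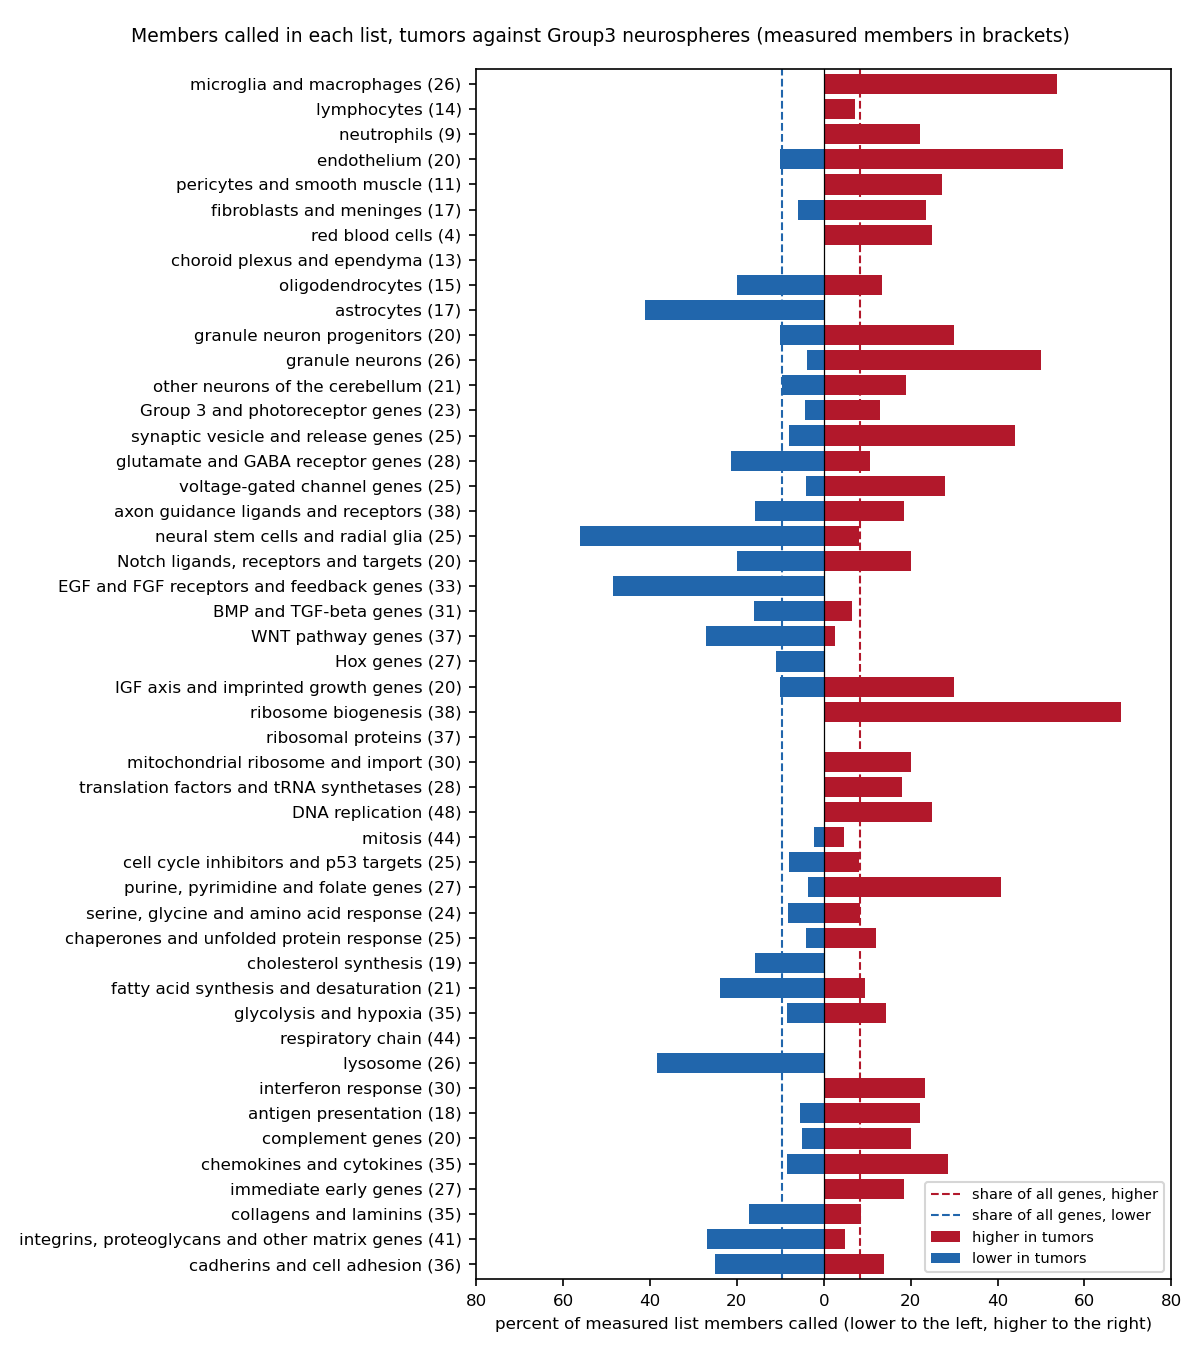
Percent of the measured members of each gene list that were called higher (right) or lower (left) in tumors; dashed lines mark the shares over all 17097 genes, 8.29% higher and 9.67% lower. Ribosome biogenesis extends farthest to the right at 68.4%, and neural stem cell genes farthest to the left at 56%.

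Lysosomal genes were lower. 10 of 26 fell and 0 rose (median -0.55). The mean level of the list was 8.82, 8.76 and 8.93 in the tumors and 9.31, 9.36 and 9.37 in the neurospheres, without overlap. Lamp2, a lysosomal membrane protein, measured 9.48, 9.83 and 9.89 in the tumors and 10.85, 11.33 and 11.27 in the neurospheres and fell by 1.42 (SE 0.17, limma adjusted p = 0.000405). Hexa, a hexosaminidase subunit, measured 7.64, 8.43 and 8.76 in the tumors and 9.66, 9.94 and 9.65 in the neurospheres and fell by 1.47 (SE 0.36, limma adjusted p = 0.0167, or 0.0612 without tumor 1 and 0.0583 without neurosphere 2), with tumor 1 lowest. Glb1 (-1.33), the cholesterol transporters Npc1 (-1.30) and Npc2 (-0.98), Asah1 (-1.30), Lipa (-0.82) and Tfeb (-0.81), the regulator of lysosome genes, were also lower.

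Lipid synthesis genes were lower where called for cholesterol, with 3 of 19 lower, Tm7sf2 (-2.37), Nsdhl (-1.21) and Srebf2 (-0.79) (median -0.46); the count was 7 without neurosphere 2. Fatty acid genes had 5 lower (Scd1 (-3.72), Lpin1 (-2.09), Me1 (-1.59), Fads1 (-1.24), Elovl5 (-0.77)) and 2 higher (Elovl2 (1.37), Elovl4 (1.01)) of 21 (median -0.19), with 0 higher without tumor 2. Glycolysis and hypoxia genes had 5 higher and 3 lower of 35 (median 0.11), and list means varied within groups as much as between them, at 8.41, 9.59 and 8.70 in the tumors and 9.31, 8.02 and 9.01 in the neurospheres. The phosphofructokinase Pfkp measured 9.27, 9.74 and 9.46 in the tumors and 7.76, 6.57 and 7.63 in the neurospheres (2.17, SE 0.36, limma adjusted p = 0.00215). The lactate exporter Slc16a3 (2.06), Car12 (1.81), the hexokinase Hk2 (1.66) and the glucose transporter Slc2a3 (1.07) were higher, and Aldoc, Eno2 (-1.95) and Ldhb (-0.92) lower; the lower members numbered 1 without tumor 3 or neurosphere 1. Serine, glycine and amino acid response genes had 2 higher (Atf3 (3.10), Slc7a1 (0.93)) and 2 lower (Nupr1 (-2.76), Psph (-1.02)) of 24 (median -0.03). Chaperones and unfolded protein response genes had 3 higher (Hspb1 (2.44), Hsph1 (1.04), Hsp90aa1 (0.86)) and 1 lower (Dnajc3 (-1.17)) of 25 (median -0.13).

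Markers of cells that a tumor can hold and a neurosphere usually lacks moved with the groups. Microglia and macrophage genes were higher in 14 of 26 and lower in 0 (median 1.11), and their mean level was 6.10, 5.67 and 5.89 in the tumors and 4.22, 4.12 and 4.27 in the neurospheres, so all 3 tumors were raised alike. Lyz2, lysozyme, measured 8.56, 8.57 and 8.34 in the tumors and 4.12, 3.05 and 3.30 in the neurospheres and rose by 5.0 (SE 0.30, limma adjusted p = 5e-06). C1qb, a complement subunit, measured 7.77, 7.31 and 7.80 in the tumors and 3.64, 3.44 and 3.63 in the neurospheres and rose by 4.06 (SE 0.29, limma adjusted p = 1.57e-05). Ctss (4.08), Tyrobp (3.90), C1qa (3.88), Ly86 (3.25), C1qc (3.0) and Fcer1g (2.8) followed. Of the 7 defining markers, C1qa, C1qb and Csf1r (0.93) passed, whereas P2ry12, a receptor of resting microglia, stayed under the mean array median with 3.54, 3.32 and 3.45 in the tumors and 3.15, 3.22 and 3.27 in the neurospheres (0.23, SE 0.31, limma adjusted p = 0.694). Cx3cr1 differed by 0.73, Tmem119 by 0.61 and Aif1 by 1.32, with limma adjusted p of 0.436, 0.113 and 0.0631; for Tmem119 it was 0.0447 without neurosphere 3.

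Endothelial genes were higher in 11 of 20 and lower in 2 (median 1.19). The count of higher members was 6 without tumor 3, 7 without neurosphere 1, 2 or 3. List means were 5.60, 5.59 and 6.70 in the tumors and 4.95, 4.80 and 4.96 in the neurospheres. The tight junction gene Cldn5 measured 7.02, 5.33 and 7.57 in the tumors and 4.01, 3.77 and 4.41 in the neurospheres (2.57, SE 0.55, limma adjusted p = 0.00901), and von Willebrand factor, Vwf, measured 5.86, 6.17 and 7.12 in the tumors and 3.77, 3.85 and 3.62 in the neurospheres (2.63, SE 0.29, limma adjusted p = 0.00021). Of the 5 defining markers Cldn5, Vwf, Cdh5 (1.23) and Flt1 (1.19) passed, and Pecam1 differed by 0.91 (SE 0.31, limma adjusted p = 0.0649, or 0.0165 without tumor 1). Plvap, a protein of fenestrated endothelium, went the other way, with 5.17, 5.63 and 6.81 in the tumors and 9.03, 8.86 and 9.0 in the neurospheres (-3.09, SE 0.36, limma adjusted p = 0.000309), and so did Ramp2 (-0.79). Plvap was thus well above the mean array median in the cultures. Ly6c1 (2.76), Esam (2.09), Egfl7 (1.77) and Kdr (1.37) also rose.

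Mural cell and fibroblast genes were highest in tumor 3 as well. Of 11 pericyte and smooth muscle genes, 3 rose (median 1.04), Rgs5, smooth muscle actin Acta2 (3.44) and vitronectin Vtn (3.24); the defining markers Pdgfrb (1.09) and Kcnj8 (1.47) did not pass, with limma adjusted p of 0.0982 and 0.147. Of 17 fibroblast and meningeal genes, 4 rose and 1 fell (median 0.57), and the rises numbered 1 without neurosphere 1, 2 without neurosphere 2. List means were 5.68, 6.10 and 7.34 in the tumors and 5.16, 4.85 and 6.0 in the neurospheres. Dcn, the proteoglycan decorin, measured 5.04, 6.02 and 8.43 in the tumors and 3.57, 3.83 and 4.47 in the neurospheres (2.54, SE 0.69, limma adjusted p = 0.027, or 0.0822 without neurosphere 1 and 0.0758 without neurosphere 2), and the collagens Col3a1 (3.23) and Col1a1 (1.34) rose with Igf2. Lum, the third defining marker, differed by 1.58 (SE 0.61, limma adjusted p = 0.104, or 0.0398 without tumor 1 and 0.0423 without tumor 3). Foxc1, a meningeal factor, fell, with 3.48, 4.08 and 6.26 in the tumors and 7.80, 7.49 and 9.33 in the neurospheres (-3.6, SE 0.64, limma adjusted p = 0.00342).

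Oligodendrocyte genes set tumor 3 apart. Mean levels of the list were 5.44, 4.67 and 8.16 in the tumors and 5.99, 5.77 and 5.61 in the neurospheres, so tumor 3 lay more than 2 log2 units above each of the other 5 arrays. Mbp, a myelin protein, measured 8.48, 6.20 and 11.58 in the tumors and 5.32, 4.63 and 4.27 in the neurospheres (4.01, SE 1.01, limma adjusted p = 0.0195, or 0.0573 without neurosphere 2 and 0.0647 without neurosphere 3), and Cldn11, a myelin tight junction gene, measured 6.54, 5.37 and 9.07 in the tumors and 4.52, 4.10 and 4.06 in the neurospheres (2.77, SE 0.73, limma adjusted p = 0.0242, or 0.0701 without neurosphere 2 and 0.0703 without neurosphere 3). Among 15 members, 2 rose and 3 fell (median 1.01). The 3 falls were Olig1, Olig2 (-4.14) and Cspg5 (-3.75), which progenitors also express. Of the defining markers, Mog measured 3.58, 3.12 and 6.11 in the tumors and Mag 6.02, 4.54 and 8.54, each highest in tumor 3, and neither passed (limma adjusted p = 0.288 and 0.068), although Mag did without tumor 2 (limma adjusted p = 0.00733). The higher members numbered 0 without neurosphere 2 or 3, 4 without tumor 2.

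Astrocyte genes were lower in 7 of 17 and higher in 0 (median -2.03), with tumor 2 the lowest array. List means were 6.45, 4.79 and 6.71 in the tumors and 7.52, 7.01 and 7.22 in the neurospheres. Aldoc, an aldolase of astrocytes and Purkinje cells, measured 9.63, 5.49 and 9.90 in the tumors and 13.26, 12.66 and 12.79 in the neurospheres and fell by 4.56 (SE 0.96, limma adjusted p = 0.00833). Acsbg1 (-3.91), Ndrg2 (-3.32), Sox9 (-3.09), the glutamate transporter Slc1a3 (-2.41), Fgfr3 and Slc4a4 (-2.20) also fell. Markers of mature astrocytes went the other way in a pair of tumors. Gfap, a glial filament, measured 7.40, 3.58 and 7.16 in the tumors and 4.54, 3.75 and 4.07 in the neurospheres, and Aqp4, a water channel of astrocyte endfeet, measured 8.83, 3.32 and 8.82 in the tumors and 4.25, 4.18 and 4.14 in the neurospheres. Tumors 1 and 3 were high for both and tumor 2 lay below the neurospheres, so neither passed (limma adjusted p = 0.149 and 0.14). Without tumor 2 both did, with limma adjusted p of 0.0011 for Gfap and 0.000222 for Aqp4. The remaining defining markers, Aldh1l1 (0.14) and Slc1a2 (0.30), did not pass either, with limma adjusted p of 0.867 and 0.292. The part of normal brain tissue in the levels of tumors 1 and 3 was not tested.

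**Figure D3:**
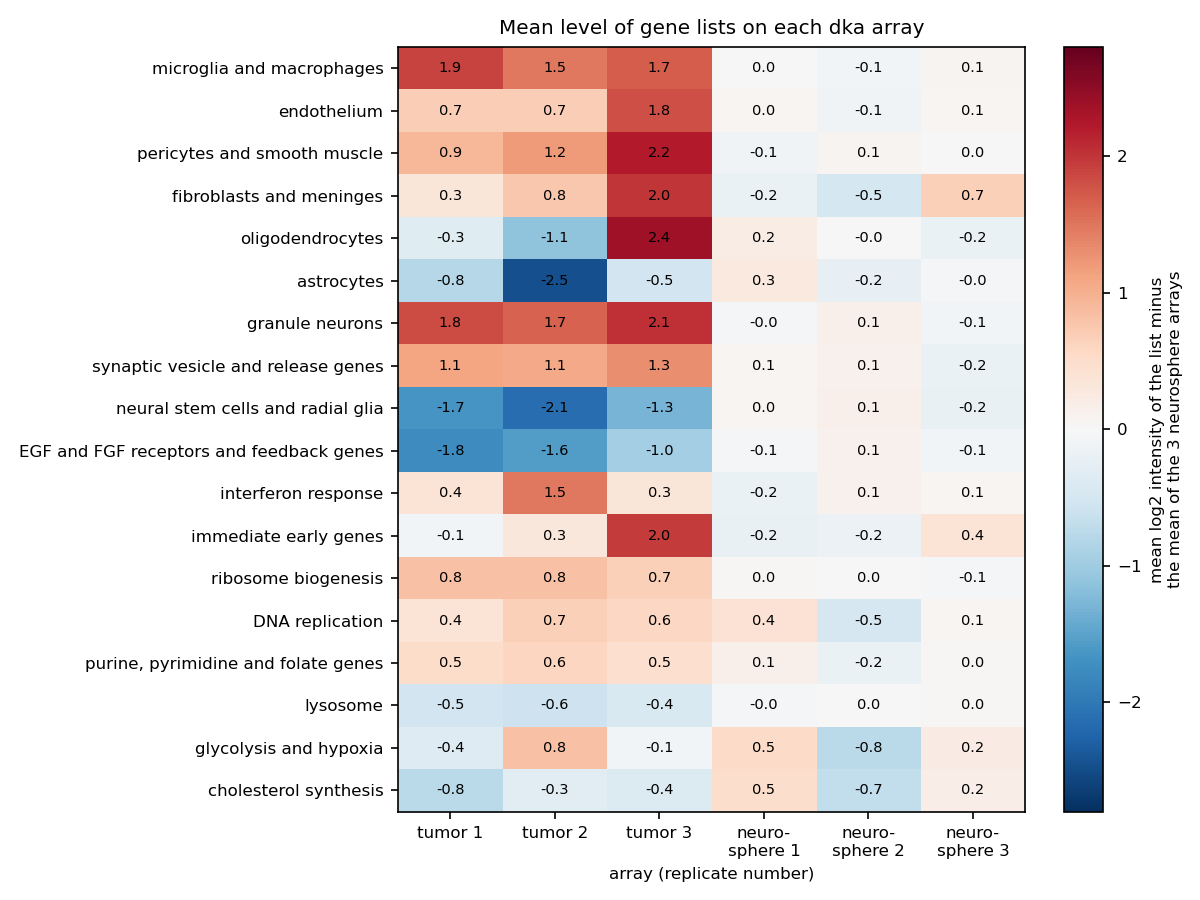
Mean log2 intensity of 18 gene lists on each of the 6 arrays, given as the difference from the mean of the 3 neurosphere arrays; red is higher and blue lower, and each cell prints its value. Tumor 3 stands out for oligodendrocyte, fibroblast, pericyte and immediate early genes, and tumor 2 for the lowest astrocyte and the highest interferon genes.

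Other blood and barrier cells contributed few calls. Lymphocyte genes rose in 1 of 14, the chemokine Ccl5 (2.37), with a median of 0.04; the T cell marker Cd3e differed by 0.15 and the B cell marker Cd79a by 0.03 (limma adjusted p = 0.547 and 0.953). Neutrophil genes rose in 2 of 9, both of them the defining markers, and the count was 0 without tumor 1 or neurosphere 1, 2 or 3, 1 without tumor 3. S100a8 measured 6.04, 3.95 and 4.85 in the tumors and 3.15, 3.40 and 3.34 in the neurospheres (1.65, SE 0.43, limma adjusted p = 0.0237, or 0.0507 to 0.0689 without tumor 1 or neurosphere 1, 2 or 3) and S100a9 rose by 1.83 (SE 0.51, limma adjusted p = 0.03, or 0.065 to 0.108 without tumor 1 or 3 or neurosphere 1, 2 or 3). Of 4 red blood cell genes 1 rose, alpha globin Hba-a1, with 7.58, 7.60 and 9.11 in the tumors and 4.75, 4.53 and 4.98 in the neurospheres (3.35, SE 0.48, limma adjusted p = 0.000972). Choroid plexus and ependyma genes gave 0 calls of 13 by limma (median 0.28). Ttr, the choroid plexus transport protein, measured 9.57, 9.25 and 3.66 in the tumors and 3.76, 4.08 and 3.76 in the neurospheres (3.63, SE 1.81, limma adjusted p = 0.211, or 0.0441 without tumor 3), so tumors 1 and 2 were high and tumor 3 was at the neurosphere level.

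Immune signalling genes were uneven among tumors. Interferon response genes rose in 7 of 30 and fell in 0 (median 0.58), with list means of 5.05, 6.13 and 4.99 in the tumors and 4.48, 4.78 and 4.71 in the neurospheres; tumor 2 was highest. The higher members numbered 2 without tumor 2 or neurosphere 1, 2 or 3, 3 without tumor 1. Cxcl10, an interferon-induced chemokine, measured 6.36, 8.93 and 8.08 in the tumors and 3.73, 4.09 and 4.30 in the neurospheres (3.75, SE 0.63, limma adjusted p = 0.00234). Ifit3 (2.25), Rtp4 (2.07), Iigp1 (1.73) and Igtp (1.33) also rose. Chemokine and cytokine genes rose in 10 of 35 and fell in 3 (median 0.44), and higher members numbered 6 without neurosphere 2. Il1b, an inflammatory cytokine, measured 7.21, 7.67 and 7.28 in the tumors and 3.99, 3.61 and 3.67 in the neurospheres (3.63, SE 0.88, limma adjusted p = 0.0162, or 0.0505 without neurosphere 2), and Ccl3, a macrophage chemokine, 6.46, 8.15 and 7.47 in the tumors and 4.08, 3.88 and 4.12 in the neurospheres (3.33, SE 0.56, limma adjusted p = 0.00234). Ccl4 (3.32), Ccl2 (3.17), Ccl7 (2.56), Il1a (2.56) and Ccl5 rose, and Il18 (-3.99), Il33 (-2.87) and Gas6 (-1.69) fell.

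Antigen presentation genes rose in 4 of 18, the class I genes H2-K1 (1.72) and H2-D1 (1.70), their regulator Nlrc5 (1.39) and the proteasome subunit Psmb8 (1.0), and H2-DMa (-1.78) fell (median 0.38), and the rises numbered 2 without tumor 1 or neurosphere 1, 2 or 3, and 0 with all 26 arrays in the limma fit. Complement genes rose in 4 of 20, the 3 C1q subunits already given and Serping1 (3.47), and Masp1 (-1.43) fell (median 0.18). Immediate early genes rose in 5 of 27 (median 0.73), numbering 2 without neurosphere 2, 3 without neurosphere 1, and without tumor 3 there were 3 falls. List means were 6.95, 7.35 and 9.0 in the tumors and 6.82, 6.88 and 7.41 in the neurospheres, highest in tumor 3. Npas4, an activity-dependent factor of neurons, measured 5.29, 8.28 and 9.16 in the tumors and 3.45, 3.69 and 3.67 in the neurospheres (3.97, SE 0.90, limma adjusted p = 0.0119), and Atf3 (3.10), Junb (2.17), Nr4a2 (1.31) and Jund (1.13) also rose. Microglia and macrophage genes were higher in all 3 tumors, with list means of 6.10, 5.67 and 5.89 in tumors 1, 2 and 3. The list means in these tumors were 5.15, 6.02 and 6.16 for chemokines and cytokines. They were 5.17, 4.72 and 4.98 for complement and 5.99, 5.73 and 5.61 for antigen presentation genes. The part of macrophages in the cytokine, complement and antigen presentation values was not tested.

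Matrix and adhesion genes were called lower more often than higher, although 21 collagen and laminin differences were positive and 14 negative. Integrins, proteoglycans and other matrix genes fell in 11 of 41 and rose in 2 (median -0.74). The falls were led by Tnc, the brain proteoglycans Bcan (-3.83), Vcan (-2.93) and Ncan (-2.52), Sparcl1 (-2.84) and the laminin receptor Itga6 (-2.31), and Itga7 (1.89) and Spock2 (1.48) rose. Cadherins and other adhesion genes fell in 9 of 36 and rose in 5 (median -0.27). Besides Chl1, Pcdh9 (-3.25), Alcam (-3.22), Cdh10 (-3.20) and Cdh20 (-2.84) fell, whereas the neuronal adhesion molecules L1cam (3.77), Cntn2, Nfasc (1.44) and Cadm3 (1.36) rose; the rises numbered 3 without tumor 3 or neurosphere 3. Collagens and laminins fell in 6 of 35 (Col5a2 (-2.95), Col9a3 (-2.81), Lamb2 (-1.95), Col11a1 (-1.95), Col16a1 (-1.87) and Agrn (-1.63)) and rose in 3 (median 0.15), the fibroblast collagens Col3a1 and Col1a1 with Col4a6 (0.54); the rises numbered 0 without neurosphere 1, 1 without tumor 3 or neurosphere 2.

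Median differences were lowest on chromosomes 14 and 16. Taking gene locations from the RefSeq table of GRCm38.p6 and the genes brighter than the median gene, the median difference was -0.516 on chromosome 14 (269 genes, 81.8% lower in tumors) and -0.606 on chromosome 16 (271 genes, 83.8% lower). Medians of the other 18 chromosomes examined ran from -0.131 to 0.173. The tumors differed: relative to the neurosphere mean, the chromosome 14 medians of tumors 1, 2 and 3 were -0.957, -0.031 and -0.592, and the chromosome 16 medians were -0.823, -0.69 and -0.245. Tumor 2 therefore did not share the chromosome 14 shift and tumor 3 had the smallest chromosome 16 shift. On no other chromosome did a tumor median lie farther from 0 than 0.259. The share of genes called lower was 17.1% on chromosome 14 and 12.9% on chromosome 16, against 9.67% of all genes. It was 12.9% on the X chromosome too, where the median difference was -0.129, so this share does not set chromosome 16 apart. Several genes called lower on chromosomes 14 and 16 were named above: Olig1, Olig2, Hes1, Etv5, Alcam and Masp1 on 16, and Ndrg2, Sox21, Spry2, Wnt5a, Dnajc3 and Pcdh9 on 14. Cldn5, Rtp4 and Epha3 on 16 and Nefl, Nefm, Zic5 and Cacna1d on 14 were higher all the same. The part of the chromosome medians in these genes' differences was not tested. Leaving both chromosomes out left 1383 higher and 1477 lower genes. This pattern was noticed after the values were seen, and DNA was not measured.

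**Figure D4:**
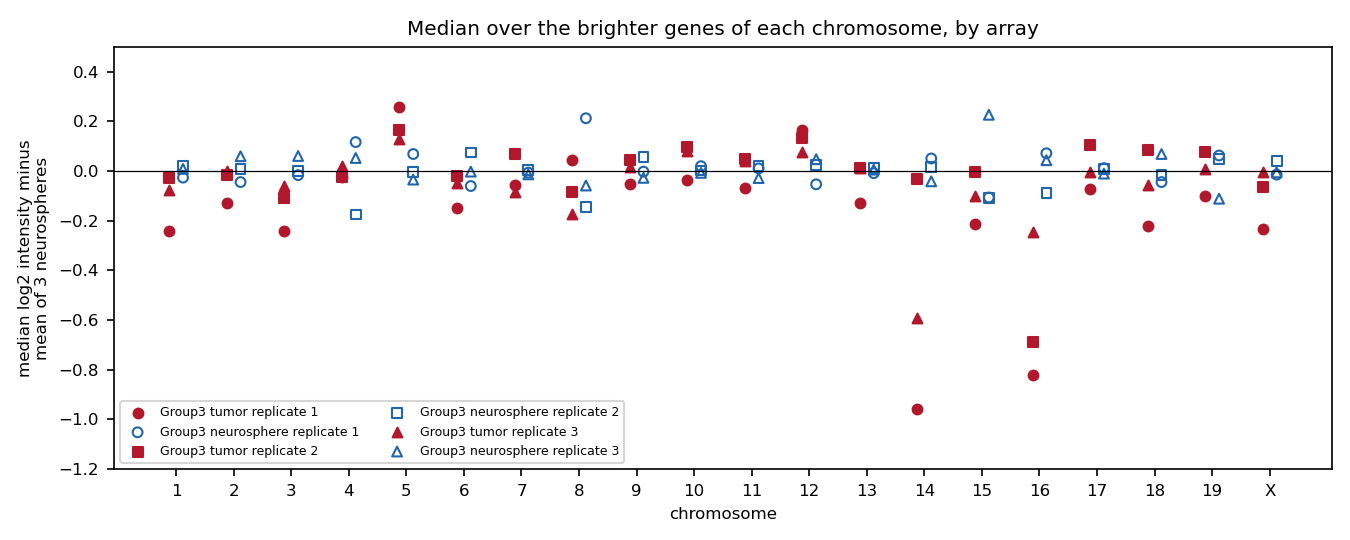
Median log2 intensity, relative to the mean of the 3 neurospheres, over the genes of each chromosome that are brighter than the median gene, for each tumor (filled) and each neurosphere (open). In tumors 1 and 3 chromosomes 14 and 16 lie below the others, at -0.957 and -0.823 and at -0.592 and -0.245; in tumor 2 chromosome 16 does (-0.69) and chromosome 14 does not (-0.031).

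Sex-linked transcripts were looked at after the values were seen. Xist, the RNA of the inactive X chromosome, measured 7.52, 7.10 and 6.75 in the tumors and 5.22, 5.06 and 5.53 in the neurospheres without overlap (1.85, SE 1.5, limma adjusted p = 0.464); the fit's spread for it includes the other dka groups. Uty, a Y-linked gene, measured 3.74, 4.36 and 4.57 in the tumors and 5.92, 6.76 and 6.58 in the neurospheres (-2.19, SE 0.84, limma adjusted p = 0.104), and Eif2s3y, also Y-linked, 8.76, 9.15 and 9.05 in the tumors and 9.37, 9.69 and 9.63 in the neurospheres (-0.58, SE 1.25, limma adjusted p = 0.813). None of the 3 passed, and the sex of the animals is not given in the labels.

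The same contrast exists among arrays with the title code mmm, which share no array with those above: 2 untreated Group3 tumors and 4 Group3 neurospheres of the same labelled genotype and strain. The mmm arrays spread over a wider range of values, from -0.41 to 16.11, except for neurosphere replicate 4, so a difference in size between the codes is read with that limit. The mean of mmm neurospheres 1 to 3 differed from the mean of the dka neurospheres by an SD over probe sets of 0.132. The single array of mmm neurosphere 4 differed from that dka mean by 0.563. A mean of several arrays varies less than a single array, so these values and those between pairs of arrays are not directly comparable. Whether the deposited mmm values were adjusted together with the dka values is not given in the sources used here, so the genes shared by the codes may not be an independent repeat. Under mmm 1499 genes were higher (8.77%) and 1839 lower (10.8%). In the same direction under both codes were 464 higher genes, 32.7% of the dka and 31% of the mmm rises, and 468 lower genes, 28.3% and 25.4%. In opposite directions were 41 genes higher under dka and lower under mmm and 29 the other way round. Without mmm neurosphere 4, 1147 genes were higher and 1585 lower under mmm, and the shared counts were 405 and 476.

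Of the 15 leading rises, 14 were higher under mmm as well, among them Neurod1 (6.03, SE 1.42, limma adjusted p = 0.0134, and 6.03 with adjusted p = 0.0282 without neurosphere 4), Rgs5 (5.84, SE 0.32, limma adjusted p = 5.03e-06, and 5.99 with adjusted p = 2.7e-05 without neurosphere 4) and Mgl2 (4.94, SE 0.35, limma adjusted p = 1.98e-05, and 4.87 with adjusted p = 9.46e-05 without neurosphere 4). Ptger3 was not (-2.29, SE 0.96, limma adjusted p = 0.122, and -2.48 with adjusted p = 0.14 without neurosphere 4). Of the 15 leading falls, 4 were lower under mmm, Etv5 (-2.86, SE 0.79, limma adjusted p = 0.0271, and -3.40 with adjusted p = 0.00936 without neurosphere 4), Calcrl (-3.56, SE 0.59, limma adjusted p = 0.00243, and -3.71 with adjusted p = 0.00446 without neurosphere 4), Pipox (-5.32, SE 0.38, limma adjusted p = 1.98e-05, and -5.22 with adjusted p = 9.46e-05 without neurosphere 4) and Sall3 (-2.51, SE 0.62, limma adjusted p = 0.0166, and -2.50 with adjusted p = 0.0342 without neurosphere 4), 9 had a negative difference and 0 were called higher by limma. Without mmm neurosphere 4 the called rises numbered 13 and the called falls 5. Microglia, granule neuron and synaptic lists were positive under both codes, with mmm medians of 3.25, 3.0 and 2.99, or 3.25, 2.69 and 2.72 without neurosphere 4. Ribosome biogenesis had an mmm median of -0.03 with 1 higher member, DNA replication -0.46 with 1 higher and 10 lower, and astrocyte genes 1.21, each apart from its dka median given above. Without neurosphere 4 these 3 medians were 0.00, -0.35 and 1.31. Further lists departed from their dka results, of which some are given here. Under mmm, mitosis genes had 0 higher and 21 lower members (median -0.80, or -0.72 without neurosphere 4). Serine, glycine and amino acid response genes had 0 higher and 13 lower (-1.43, or -1.35 without neurosphere 4). Nucleotide and folate genes had 0 higher and 7 lower members (median -0.29). Transmitter receptors had 12 higher and 0 lower (1.76). Cadherins and other adhesion genes had 9 higher and 1 lower (0.63). Integrins, proteoglycans and other matrix genes had 5 higher and 4 lower (0.26). Collagens and laminins had 6 higher and 3 lower (0.23, or -0.01 without neurosphere 4). Immediate early genes had 1 higher and 6 lower (-0.81), and neural stem cell genes 1 higher and 4 lower (-0.17). EGF and FGF genes kept a negative median, -0.60, with 5 lower members, and -0.88 without neurosphere 4. The difference between the codes was tested gene by gene and passed for 1567 genes (9.17%), or 1017 without mmm neurosphere 4; it was not tested for lists.

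**Figure D5:**
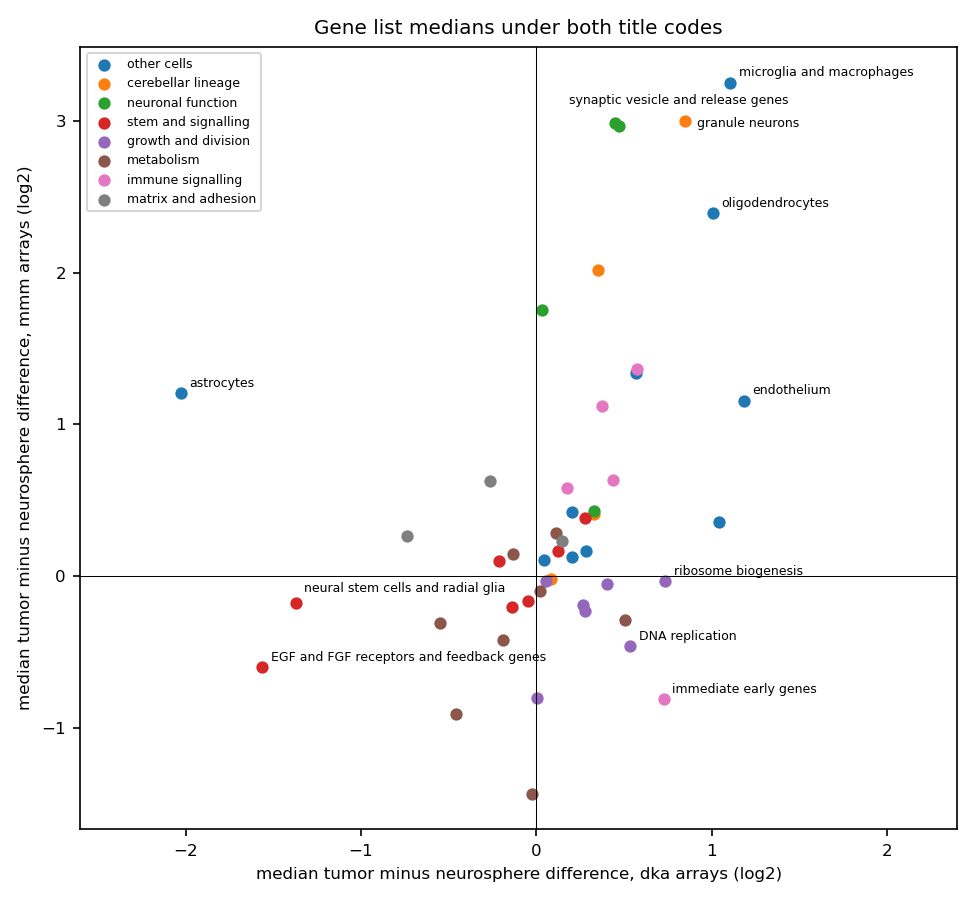
Median tumor minus neurosphere difference of each gene list under the dka arrays (horizontal axis) and the mmm arrays (vertical axis), both log2, coloured by the role of the list. Microglia (1.11 and 3.25) and granule neuron genes (0.85 and 3.0) lie above 0 on both axes, astrocyte genes at -2.03 and 1.21, and ribosome biogenesis at 0.74 and -0.03; the axes have different value ranges.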

How the data were processed

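RNA of the 26 samples was extracted with Trizol, amplified with NuGEN Ovation Pico WTA V2, labelled with NuGEN Encore Biotin and hybridised to 1-colour arrays, per the labels' protocols. The authors deposited log2 intensities of 45141 probe sets, with RMA and Partek 6.6 named in the submitters' processing notes; the background correction, any step applied to the mmm arrays alone and the genome build are not given in the sources used here. The values were used as deposited, without a further filter or normalization. GEO's platform annotation gives 1 gene symbol to 28898 probe sets, several to 551 and none to 15692; 104 control probe sets were left out. Each of 17097 genes was read from its probe set with the highest mean over the arrays; 7180 genes have more than 1.

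The 12 dka arrays entered one limma 3.58.1 fit (R 4.3.3, lmFit and eBayes) of 4 group means, and p values of tumor minus neurosphere were Benjamini-Hochberg adjusted over all genes at 0.05. The mmm contrast came from the mmm arrays (5 groups), and the difference between the codes from all 26 arrays (9 groups). Alternatives were other sets of arrays, probe set rules, scalings, weights, filters on dim genes and each array left out in turn. Leaving out chromosomes 14 and 16 or mmm neurosphere 4 was added after the data were seen. On simulated data for this comparison (17097 genes), 67 genes were changed 1.5-fold, 67 were changed 2-fold and 66 were changed 4-fold. Of these, limma called 6 (8.96%), 31 (46.3%) and 58 (87.9%), with 10 false calls. Far fewer genes were changed there than the 3070 called in the data. Recovery with as many changed genes was not tested, so these shares may not hold for the data. Precision is limited by 3 arrays per group.

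The arrays compared, the 48 lists (1215 measured genes) and the tests were chosen with earlier results of these data known. Named genes were Mycn, Myc and Cdkn2c, then the 15 genes that rose most and the 15 that fell most among calls without overlap of the groups (without predicted genes, repeats and olfactory receptors), and of each list the up to 8 called members with the largest difference, or the 2 largest where none passed. Defining cell type markers are named as a set. Further list members, and Otx2, Xist, Uty and Eif2s3y, were named after their values were seen. Promoter sequences are those of RefSeq for GRCm38.p6. Tables were made with Python 3.11.15 and pandas 2.3.3.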

Additional observations from a re-analysis of the deposited data

Results flagged for a closer look

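The difference between tumors and neurospheres was itself compared between the title codes, by a limma interaction over all 26 arrays, and it differed for 1567 of 17097 genes at an adjusted p under 0.05. Among the 30 leading genes it differed for 9, given here as the dka difference minus the mmm difference on the log2 scale. It was 2.96 for Ppp1r14a, 1.82 for Dusp26 and 7.44 for Ptger3 among the rises. Among the falls it was -8.71 for Chl1, -6.11 for Car3, -4.17 for Hoxa5, -3.5 for Fndc1, -4.79 for Grm3 and -4.8 for Mlc1. Ppp1r14a and Dusp26 were called higher under both codes, by different amounts. Ptger3 was 5.15 higher in tumors under dka and 2.29 lower under mmm, whereas Chl1 was 6.32 lower under dka and 2.39 higher under mmm, and neither mmm value passed by itself (limma adjusted p = 0.122 and 0.33). Without mmm neurosphere 4 the interaction was no longer past the threshold for Dusp26, Fndc1, Grm3 and Mlc1, with limma adjusted p of 0.0703, 0.0618, 0.0718 and 0.0818. The value ranges of the codes differ, and their part in these differences was not tested.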

How the results depend on the processing

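No paired analysis was possible because the titles carry no replicate numbers, and the numbers used here follow the order of deposit. In every alternative run, 0 of the 278 called named genes reversed. The 1417 higher and 1653 lower genes became 1014 to 1196 and 1153 to 1477 with 1 array left out, and 1051 to 1507 and 1303 to 1722 under the other settings. The 350 called list genes became 283 to 327 with 1 array left out and 268 to 366 otherwise. Called named genes that lost the call numbered 42 to 60 with 1 array left out, 61 in a fit of the 6 arrays alone, 42 in a fit of all 26 arrays, 50 with low values raised to the array median and 1 to 18 under the other settings. The 932 genes shared in direction with the mmm arrays became 715 to 841 with 1 dka array left out, and 750 without dim genes. Genes whose difference differed between the codes fell from 1567 to 1017 without mmm neurosphere 4, a setting chosen after seeing the data. Signals near the array median limit the sizes of differences with a dim group.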
